A study of Mus musculus with 4 samples.

Results

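Several steps of glycolysis are each carried out by more than 1 enzyme form, encoded by paralogous genes and called isozymes. The 10 genes described here, of 23420 gene symbols counted, encode isozymes of 4 such steps: the hexokinases *Hk1* and *Hk2*, the phosphofructokinases *Pfkl*, *Pfkm* and *Pfkp*, the aldolases *Aldoa* and *Aldoc*, and the enolases *Eno1*, *Eno2* and *Eno3*. They were found by their symbols in the count files, and all 10 had an entry. They were selected on their counts in the same WT and *Patz1* KO motor neurons (MNs), so their values in that comparison are given as a description, without a test. The question asked of the data was whether isozymes of the same step moved together or apart when PATZ1, a zinc finger protein studied for its part in chromatin insulation, was lost.

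Glycolysis splits glucose into pyruvate and yields ATP and NADH. Hexokinase traps glucose in the cell as glucose 6-phosphate, phosphofructokinase commits the sugar to the pathway and is its main control point, aldolase cleaves the sugar into 3-carbon units, and enolase makes phosphoenolpyruvate near the end. Isozymes of a step catalyse the same reaction but differ in regulation and tissue: HK1, ALDOC and ENO2 are known from brain, PFKM and ENO3 from muscle, PFKL from liver, and ENO2 is a classical marker of neurons.

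RNA-seq was measured in 4 libraries, 2 of WT (the E14 line of mouse embryonic stem cells, mESCs, with wild type *Patz1*) and 2 of *Patz1* KO (genotype *Patz1* -/- in E14). Both genotypes were taken through embryoid bodies and patterned with 1 µM all-trans-retinoic acid and 0.5 µM smoothened agonist towards cervical MNs, and ribosomal RNA was depleted from 1 µg of total RNA before stranded libraries were made. Replicates of the study stand for separate differentiations, and p-values measure only the spread between these. The titles of the samples name ESCs, whereas their source and cell type name MNs. The study made several *Patz1* KO clones with CRISPR/Cas9, while the design of the series counts 1 KO line and the labels do not say which. The genotype and the line used therefore cannot be told apart.

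The libraries held 14769104 and 15728158 counts (WT) and 23881522 and 17402342 counts (*Patz1* KO). Levels are given as CPM, counts scaled to a common library size with the TMM method. *Patz1* transcripts had 91.5 and 94.3 CPM in WT and 47.6 and 42.6 CPM in KO, so the gene was still counted in both KO libraries. Neurons were present in both genotypes by their markers, since *Tubb3*, a neuronal tubulin, had 1670 CPM in WT and 2420 CPM in KO on average. Of 14 neuronal markers, 7 were higher and 2 lower in KO by the test given below. *Nefm*, among the lower ones, had 304 CPM in WT and 62.5 CPM in KO. MN markers were present too, and *Chat*, which encodes the enzyme that makes acetylcholine, had 28.2 and 56 CPM. Of 14269 genes that passed the filter on low counts, 47.9% differed between the genotypes at an adjusted p below 0.05 in the quasi-likelihood test of edgeR, adjusted by Benjamini-Hochberg over all genes tested, with 24.1% higher and 23.8% lower in KO.

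Isozymes of a step can be counted apart in short reads only where their transcripts differ. The coding sequences of the paralogs were 66.5% identical for *Pfkl* and *Pfkp*, 67.5% for *Pfkm* and *Pfkp*, 69.2% for *Hk1* and *Hk2*, 69.7% for *Pfkl* and *Pfkm*, 75.6% for *Aldoa* and *Aldoc* and 77.4% for *Eno2* and *Eno3*. No stretch of 50 bases was shared between any of the 10 isozyme transcripts. The first 90 coding bases are shown for the closest pairs among the isozymes that could be measured, taken from GENCODE M21 transcripts on GRCm38, with the bases that differ within a pair in capitals. The start codons lie on chromosome 7 at 126797753 to 126797755 (*Aldoa*, minus strand), on chromosome 11 at 78324402 to 78324404 (*Aldoc*, plus strand), on chromosome 6 at 124768320 to 124768322 (*Eno2*, minus strand) and on chromosome 11 at 70657874 to 70657876 (*Eno3*, plus strand). *Aldoa* and *Aldoc* differed at 19 of these 90 bases, and *Eno2* and *Eno3* at 25.
Aldoa: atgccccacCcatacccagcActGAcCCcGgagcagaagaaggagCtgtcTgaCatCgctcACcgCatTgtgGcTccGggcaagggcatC
Aldoc: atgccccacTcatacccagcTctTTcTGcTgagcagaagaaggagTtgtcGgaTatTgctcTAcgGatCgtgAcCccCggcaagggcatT
Eno2: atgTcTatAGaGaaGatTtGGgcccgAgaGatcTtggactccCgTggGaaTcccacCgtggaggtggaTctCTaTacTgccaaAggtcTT
Eno3: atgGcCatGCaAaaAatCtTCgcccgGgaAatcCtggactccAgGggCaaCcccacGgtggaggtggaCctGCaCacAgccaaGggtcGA

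*Eno1*, which encodes the enolase used by most cells, could not be read from its own entry. It lies on chromosome 4 of GRCm38 from 150236721 to 150248879, and it had 3 and 2 counts in WT against 4 and 2 counts in KO. It was the 1 isozyme of the 10 that did not pass the filter, and no fold is given. Its transcript shared 1428 of 1978 stretches of 50 bases (72.2%) with other annotated genes, 1395 of them with *Eno1b*, whose coding sequence was identical to that of *Eno1* at 1294 of 1302 bases (99.4%). The entry under the older symbol of *Eno1b*, *Gm5506*, held 507 and 512 counts in WT against 1717 and 1352 in KO. Reads of *Eno1* and *Eno1b* cannot be told apart over most of their length, so the few counts of *Eno1* do not show that the gene was silent. Which step of mapping or counting took its reads was not tested.

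The windows around the transcription starts of the isozymes were also examined, from 250 bases before to 50 bases after the start, as RefSeq gives them on GRCm38.p6. All 10 genes had at least 1 window, and 19 windows were found in all. The letters ACGTG, read on both strands, are a form of the core to which hypoxia-inducible factors bind. They overlap with the site of other basic helix-loop-helix factors, and glycolytic genes are classical targets of the hypoxia response. ACGTG occurred in 7 of the 19 windows, from *Hk1*, *Hk2*, *Pfkm*, *Aldoa* and *Aldoc*, against 19.6% of all 32851 windows. By gene this was 5 of 10. The 19.6% is a share of windows, and no share by gene was computed to set beside it. A gene with several windows has more chances of a match. Windows of a gene can overlap, and those of *Aldoa* with a match hold the same site, so windows are not separate counts. The G-rich letters GGGGAGGGG, chosen because PATZ1 and its relative MAZ bind G-rich DNA, occurred in 1 of the 19 windows, from *Pfkm*, against 6.37% of all windows. Windows of 4 genes, 1 for each step, are shown from 5′ to 3′ on the strand of the gene, with ACGTG or its complement CACGT in capitals, so that windows with and without a match can be compared. *Hk2* (chr6:82774405-82774704, minus strand) held 2 matches and *Aldoa* (chr7:126799205-126799504, minus strand) held 1, whereas *Pfkl* (chr10:78009758-78010057, minus strand) and *Eno2* (chr6:124769624-124769923, minus strand) held none. Other forms of the core, such as GCGTG, were not counted, so a window without a match may still hold one. The window of *Pfkl* shown here does hold GCGTG.
Hk2: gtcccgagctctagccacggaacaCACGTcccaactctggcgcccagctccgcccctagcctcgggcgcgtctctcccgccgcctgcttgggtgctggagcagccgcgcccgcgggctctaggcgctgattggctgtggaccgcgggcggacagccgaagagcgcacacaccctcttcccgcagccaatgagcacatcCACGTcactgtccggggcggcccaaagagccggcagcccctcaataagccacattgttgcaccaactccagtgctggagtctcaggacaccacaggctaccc
Pfkl: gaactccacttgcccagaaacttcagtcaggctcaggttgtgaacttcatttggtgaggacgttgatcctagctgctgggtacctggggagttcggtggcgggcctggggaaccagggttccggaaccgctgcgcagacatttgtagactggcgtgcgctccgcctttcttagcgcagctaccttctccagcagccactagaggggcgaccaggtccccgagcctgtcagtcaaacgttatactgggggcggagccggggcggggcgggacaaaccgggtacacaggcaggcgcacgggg
Aldoa: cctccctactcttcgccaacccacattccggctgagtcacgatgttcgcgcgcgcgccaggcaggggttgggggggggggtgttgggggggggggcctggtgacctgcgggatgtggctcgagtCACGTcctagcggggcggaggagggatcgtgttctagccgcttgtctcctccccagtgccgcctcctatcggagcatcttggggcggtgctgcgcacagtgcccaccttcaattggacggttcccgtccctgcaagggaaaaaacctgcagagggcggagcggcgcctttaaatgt
Eno2: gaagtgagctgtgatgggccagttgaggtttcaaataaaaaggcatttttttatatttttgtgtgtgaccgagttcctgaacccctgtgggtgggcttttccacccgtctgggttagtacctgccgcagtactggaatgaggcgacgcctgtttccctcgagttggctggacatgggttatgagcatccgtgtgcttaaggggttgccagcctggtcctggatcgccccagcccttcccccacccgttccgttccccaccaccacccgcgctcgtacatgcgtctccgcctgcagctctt

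Within 3 of the 4 steps the isozymes parted. *Hk1* was higher in *Patz1* KO MNs while *Hk2* overlapped between the genotypes, *Pfkl* and *Pfkp* were higher while *Pfkm* overlapped, and *Eno2* was higher while *Eno3* was lower. In the aldolase step, *Aldoa* and *Aldoc* were both higher, by like folds. Of the 9 isozymes that passed the filter, 6 were called higher and 1 lower, beside 47.9% of all genes called, and DESeq2 made the same 7 calls, beside 32.4% of all genes. The groups did not overlap in these 7, beside 74.2% of all genes. Nothing is read from these shares, because the genes were chosen with this comparison known. The median log2 fold change of the 9 was 1.37, beside -0.0014 over all genes tested. In these bulk samples, fewer cells of a type and less RNA per cell cannot be told apart.

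**Figure D1:**
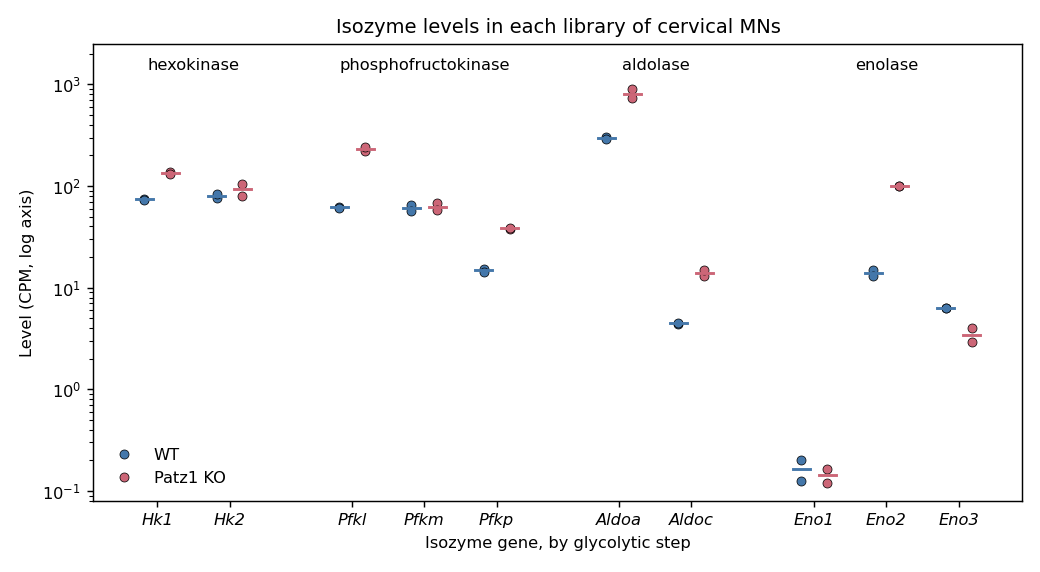
Level of each isozyme gene in each library, in CPM on a log axis, with points for the 2 WT and 2 *Patz1* KO libraries and lines for the group means. *Pfkl*, *Pfkp*, *Aldoa*, *Aldoc*, *Hk1* and *Eno2* lie higher in both KO libraries, *Eno3* lies lower, and *Hk2* and *Pfkm* overlap; *Eno1*, at 4 counts or fewer, could not be measured from its entry.

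Hexokinase was the step whose summed level differed least. *Hk1*, the housekeeping hexokinase that sits on mitochondria and predominates in brain (chromosome 10, 62268855 to 62379908), had 1119 and 1152 counts in WT against 3332 and 2205 in KO. This was 75.1 and 72.5 CPM in WT and 137 and 131 CPM in KO. Both KO libraries lay above both WT libraries, from 73.8 ± 1.89 CPM (SD, n = 2) to 134 ± 4.23 CPM (SD, n = 2), a log2 fold change of 0.87 (standard error, SE, 0.087). The annotated exons of *Hk1* overlap those of the antisense gene *Hk1os*.

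*Hk2*, the inducible hexokinase of muscle and of proliferating cells (chromosome 6, 82725025 to 82774454), had 1124 and 1332 counts in WT against 1943 and 1753 in KO, or 75.5 and 83.8 CPM against 80.2 and 105 CPM. The first KO library lay between the 2 WT libraries, so the groups overlapped. The log2 fold change was 0.21 (SE 0.11), and it depended on the KO library used, at 0.40 without the first, where the gene was called higher, and 0.015 without the second. The counts of *Hk1* per count of *Hk2* in the same library, a ratio that does not depend on how libraries are scaled, were 0.996 and 0.865 in WT and 1.71 and 1.26 in KO. This was 1.58 times as high in KO, with both KO libraries above both WT libraries. The 2 genes together had 153 ± 3.99 CPM in WT and 227 ± 13 CPM in KO (mean ± SD, n = 2 each), 1.48 times as much.

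The liver-type phosphofructokinase *Pfkl* (chromosome 10, 77986947 to 78010083) had 930 and 971 counts in WT against 5416 and 4030 in KO. Its level was 62.4 and 61.1 CPM in WT and 223 and 240 CPM in KO. The groups lay far apart and replicates were close, at 61.8 ± 0.967 CPM and 232 ± 11.9 CPM (mean ± SD, n = 2 each). On the log2 scale the KO level was higher by 1.91 (SE 0.09), or 3.75-fold.

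The muscle-type gene *Pfkm* (chromosome 15, 98092589 to 98132451) had 966 and 901 counts in WT against 1640 and 974 in KO. Its level, 64.9 and 56.7 CPM in WT and 67.7 and 58.1 CPM in KO, overlapped between the groups. The log2 fold change of 0.052 (SE 0.1) changed sign when the first KO library or the second WT library was left out. Its exons overlap those of *Gm26513* on the same strand and *Senp1* on the other. Thus, *Pfkl* and *Pfkm* had nearly the same counts in each WT library, and *Pfkl* had several times the counts of *Pfkm* in each KO library.

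The platelet-type gene *Pfkp*, which is also used in brain (chromosome 13, 6579768 to 6648777), had 228 counts in each WT library and 908 and 654 in KO. Its level was 15.3 and 14.3 CPM in WT and 37.5 and 39 CPM in KO, with no overlap. From 14.8 ± 0.684 to 38.2 ± 1.09 CPM (mean ± SD, n = 2 each), it had a log2 fold change of 1.37 (SE 0.11). A share of 17.1% of its stretches of 50 bases also occurs in *Pitrm1*, which overlaps it on the other strand, so part of its counts is uncertain.

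Within a library, *Pfkl* per *Pfkm* was 0.963 and 1.08 in WT and 3.3 and 4.14 in KO, 3.63 times as high. *Pfkp* per *Pfkm* was 0.236 and 0.253 in WT and 0.554 and 0.671 in KO, 2.49 times as high. Both ratios were thus higher in each KO library than in either WT library. *Pfkl* also gained on *Pfkp*, from 4.08 and 4.26 to 5.96 and 6.16, 1.45 times as high. Summed over the 3 genes, phosphofructokinase had 137 ± 7.44 CPM in WT and 333 ± 6.23 CPM in KO (mean ± SD, n = 2 each), 2.42 times as much.

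Aldolase was dominated by *Aldoa*, the form found in most tissues and abundant in muscle (chromosome 7, 126795234 to 126800751). It had 4542 and 4597 counts in WT against 17710 and 15004 in KO, or 305 and 289 CPM against 731 and 895 CPM. Both KO libraries lay above WT but differed from each other more than the WT libraries did, at 813 ± 116 CPM (SD, n = 2) against 297 ± 11.2 CPM (SD, n = 2). The log2 fold change was 1.45 (SE 0.11), a 2.74-fold higher level. Of its stretches of 50 bases, 13.9% occur in *Aldoart1* and other copies, and its exons overlap those of *Fam57b* on the other strand.

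*Aldoc*, the brain aldolase, known from astrocytes and Purkinje cells (chromosome 11, 78322968 to 78327781), had 65 and 72 counts in WT against 318 and 249 in KO. Its level was 4.36 and 4.53 CPM in WT and 13.1 and 14.8 CPM in KO, without overlap. The log2 fold change was 1.65 (SE 0.18), from 4.45 ± 0.116 to 14 ± 1.22 CPM (mean ± SD, n = 2 each), a 3.13-fold higher level. Within a library, *Aldoa* per *Aldoc* was 69.9 and 63.8 in WT and 55.7 and 60.3 in KO, so the groups did not overlap. *Aldoc* took 1.41% of the aldolase counts in the first WT library (95% exact Clopper-Pearson interval 1.09 to 1.79) and 1.54% in the second (1.21 to 1.94). It took 1.76% in the first KO library (1.58 to 1.97) and 1.63% in the second (1.44 to 1.85). These intervals, which cover counting error only, overlap between the genotypes. Their overlap is no test of the difference, and whether the separation of the ratios exceeds counting error was not tested. Glial markers were counted in both genotypes. Of the 9 tested markers of astrocytes and radial glia, 3 rose and 4 fell in the same test, beside 24.1% and 23.8% of all genes. The summed level of the listed glial markers was 2320 and 2190 CPM in WT and 2290 and 2340 CPM in KO. This sum was weighted to highly counted genes such as *Vim*, at 849 CPM in WT and 826 CPM in KO. Single markers moved in opposite directions under it: *Slc1a3* went from 48.9 to 116 CPM and *Gja1* from 39.7 to 5.03 CPM. *Gfap*, which marks mature astrocytes, had no more than 1 count in any library. The part of glia in the level of *Aldoc* was not tested.

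The widest split was in the enolase step. *Eno2*, the neuronal enolase (chromosome 6, 124760053 to 124769673), had 223 and 208 counts in WT against 2445 and 1661 in KO. Its level was 15 and 13.1 CPM in WT and 101 and 99 CPM in KO. Among the 9 isozymes measured it had the largest fold difference, from 14 ± 1.34 to 100 ± 1.29 CPM (mean ± SD, n = 2 each), with a log2 fold change of 2.83 (SE 0.11) or 7.13-fold.

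*Eno3*, the muscle enolase (chromosome 11, 70657202 to 70662513), went the other way. It had 94 and 101 counts in WT against 71 and 67 in the deeper KO libraries, or 6.31 and 6.35 CPM against 2.93 and 3.99 CPM. The log2 fold change was -0.89 (SE 0.23), a level 1.86 times as high in WT, at 6.33 ± 0.0293 against 3.46 ± 0.754 CPM (mean ± SD, n = 2 each). Within a library, *Eno2* per *Eno3* was 2.37 and 2.06 in WT and 34.4 and 24.8 in KO, a ratio 13.2 times as high. *Eno2* and *Eno3* summed to 20.4 ± 1.31 CPM in WT and 103 ± 0.541 CPM in KO (mean ± SD, n = 2 each), 5.08 times as much. This sum leaves out *Eno1* and the entry of *Eno1b*, so it is not the whole of the step.

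The summed levels of neuronal and of muscle markers differed in the same directions as these 2 enolases. Of 14 neuronal markers, 7 rose and 2 fell, and their summed level was 6680 and 6210 CPM in WT and 10100 and 9370 CPM in KO. Beside these and the marker counts that follow, 24.1% of all genes tested rose and 23.8% fell. Of 9 MN markers, 7 rose and 2 did not pass the test, *Isl1* and *Olig2*, which were each lower in both KO libraries. The summed levels of the 9 were 707 and 663 CPM in WT and 1090 and 998 CPM in KO. The neuronal sum was thus higher in each KO library, but log2 fold changes of single neuronal markers ranged from -2.28 for *Nefm* to 1.33 for *Nefl*. Of 12 markers of skeletal muscle, 5 passed the filter and 3 of these fell, with summed levels of 13.4 and 13.5 CPM in WT and 5.65 and 7.04 CPM in KO. The defining muscle genes *Myod1*, *Myf5*, *Myf6* and *Ckm* had 3 or fewer counts in every library, and *Myog*, another of them, had 4 and 5 counts in WT against 10 and 9 in KO. The part of these cell types in the levels of *Eno2*, *Eno3* and the other isozymes was not tested.

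**Figure D2:**
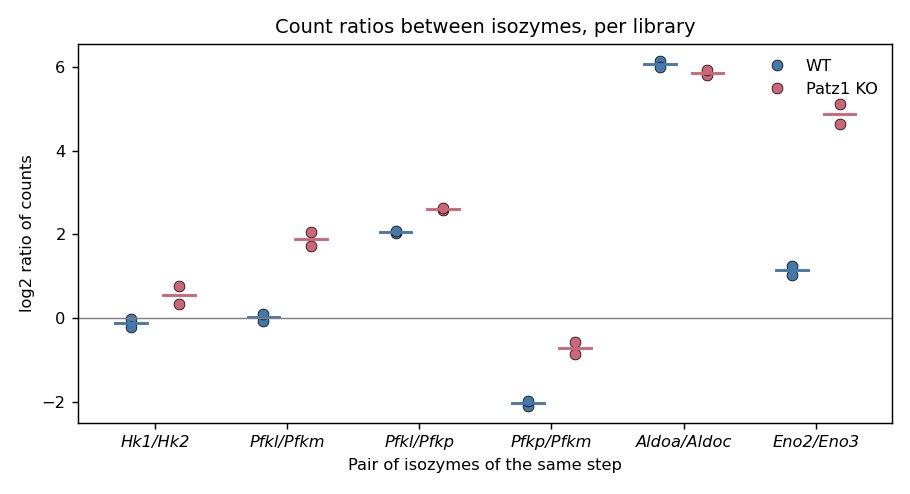
Log2 ratio of the counts of 2 isozymes of the same step in each library, with points for the 2 WT and 2 *Patz1* KO libraries and lines for the group means. The largest shift between groups is in *Eno2* per *Eno3*, by 3.72 on the log2 scale, followed by *Pfkl* per *Pfkm* at 1.86; *Aldoa* per *Aldoc* is almost level.

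Levels of different genes were compared per kb of merged exon length (CPM per kb). In WT the order was *Aldoa* (102), *Pfkm* (18.2), *Hk2* (13.3), *Pfkl* (9.25), *Hk1* (8.65), *Eno3* (3.64), *Eno2* (2.98), *Aldoc* (1.36) and *Pfkp* (1.11), and no neighbours in this order overlapped between their 2 libraries. In KO it was *Aldoa* (279), *Pfkl* (34.7), *Eno2* (21.2), *Pfkm* (18.8), *Hk1* (15.8), *Hk2* (15.5), *Aldoc* (4.29), *Pfkp* (2.85) and *Eno3* (1.99), where *Hk2*, at 13.4 and 17.5 in its 2 libraries, overlapped both *Hk1* at 16.1 and 15.4 and *Pfkm* at 20.3 and 17.4. *Pfkl* and *Eno2* thus stood next after *Aldoa* in KO, and *Eno3* came last.

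As shares of a step in counts per kb, *Pfkl* took 31.3% and 33.7% of phosphofructokinase in WT and 59.2% and 63.9% in KO. *Pfkm* took 64.9% and 62.4% in WT and 35.8% and 30.9% in KO. *Pfkp*, the smallest share throughout, went from 3.82% and 3.94% to 4.95% and 5.17%. The leading phosphofructokinase was therefore *Pfkm* in both WT libraries and *Pfkl* in both KO libraries. *Eno2* went from 46.7% and 43.2% of the counts per kb of *Eno2* and *Eno3* together in WT to 92.7% and 90.2% in KO. With the entry of *Eno1b* counted in the step, a choice made after seeing the data, *Eno2* took 12.8% and 11.8% in WT and 35.2% and 31.8% in KO, and that entry led in every library at 62% to 72.7%. *Hk1* went from 41.1% and 37.7% of the 2 hexokinases to 54.5% and 46.8%, and *Aldoa* stayed at 98.4% or more in every library. The shares depend on the transcript length assumed: per kb of the longest transcript, *Hk1* already led in WT at 54.5 ± 2.5% (SD, n = 2), and *Eno2* at 55.3 ± 2.5% (SD, n = 2). The lead of *Pfkm* over *Pfkl* in WT held with that length, at 53.6% against 42.1%, but not without a length correction, at 44.2% against 45%.

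**Figure D3:**
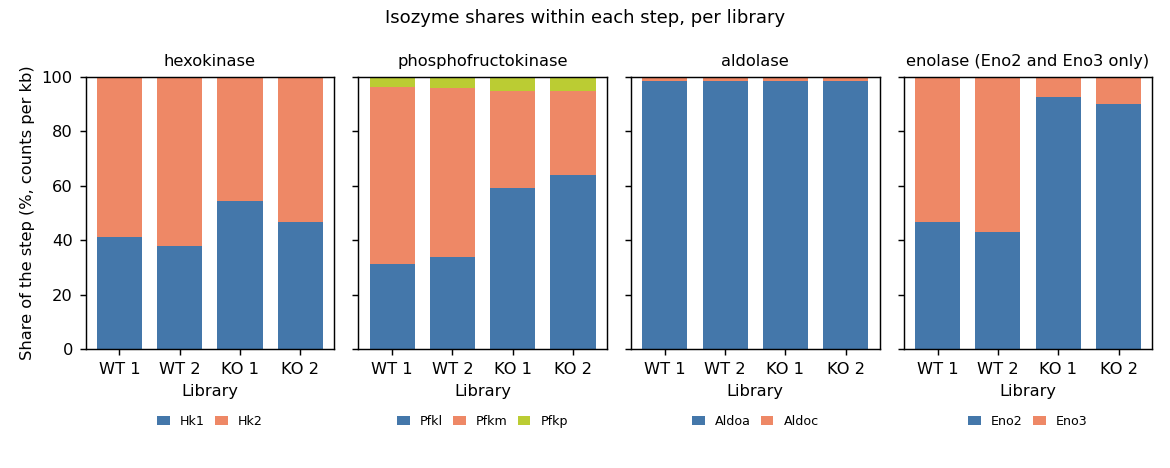
Share of each isozyme in the summed counts per kb of merged exon length of its step, in percent, for each of the 4 libraries. *Pfkl* overtakes *Pfkm* in both *Patz1* KO libraries and *Eno2* takes 92.7% and 90.2% of the counts per kb of *Eno2* and *Eno3* there, without *Eno1* and *Eno1b*, while *Aldoa* takes nearly all aldolase counts in each library.

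Other isozymes of the same steps were listed as well. This list, the pathway lists below and the marker lists were chosen with earlier results of these data known. Their counts and adjusted p are therefore a description, and nothing is read from the shares. Of 8 genes, 5 passed the filter, and 1 rose and 2 fell in KO at an adjusted p below 0.05 in the same quasi-likelihood test of edgeR. Over all genes, 24.1% rose and 23.8% fell in this test. *Hk3*, a hexokinase of blood cells, had 107 and 94 counts in WT against 34 and 30 in KO, and its log2 fold change was -2.05 (SE 0.26, adjusted p = 4.52e-06 by edgeR). *Hkdc1*, a hexokinase-like gene, had 62 and 75 counts in WT against 11 and 8 in KO (log2 fold change -3.24, SE 0.34, adjusted p = 6.13e-07 by edgeR). *Hkdc1* lies close to *Hk1* on chromosome 10 and on the same strand, from 62383137 to 62422491, and it fell while *Hk1* was higher. The entry of *Eno1b*, which may hold reads of *Eno1*, rose from 33.1 ± 1.3 to 75.7 ± 6.91 CPM (mean ± SD, n = 2 each), with a log2 fold change of 1.19 (SE 0.1, adjusted p = 4.79e-08 by edgeR).

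The other isozymes given here did not pass the test or the filter. *Eno4*, an enolase of sperm, had 8 and 17 counts in WT against 16 and 3 in KO (adjusted p = 0.249 by edgeR). *Aldoart1*, a retrogene of *Aldoa*, had 7 and 3 counts in WT against 11 and 37 in KO, and *Aldoart2* had 2 counts or fewer in every library. No isozyme on this list reached 10 CPM in either genotype other than the entry of *Eno1b*. Markers of primitive endoderm, an early embryonic tissue that differentiating mESCs can form, also fell, 10 of 12 by the same test, beside 23.8% of all genes. Their summed levels were 1130 and 1280 CPM in WT and 277 and 252 CPM in KO. Their part in the fall of *Hk3* and *Hkdc1* was not tested.

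The genes listed under other glycolytic steps, with the glucokinase *Adpgk* among them, rose or did not pass the test. Of 12 genes listed, 11 passed the filter, 7 rose, beside 24.1% of all genes, and 4 did not pass edgeR's quasi-likelihood test, with a median log2 fold change of 0.73. *Pgk1*, which makes ATP from 1,3-bisphosphoglycerate, rose from 336 ± 9.24 to 1610 ± 246 CPM (mean ± SD, n = 2 each), with a log2 fold change of 2.26 (adjusted p = 2.22e-10 by edgeR). *Tpi1*, which interconverts the triose phosphates, rose from 191 ± 9.02 to 780 ± 100 CPM (mean ± SD, n = 2 each), with a log2 fold change of 2.03 (adjusted p = 1.99e-10 by edgeR). It lies on chromosome 6 from 124810586 to 124814296, close to *Eno2*. The log2 fold change of *Pgk1* was larger than that of any of the 9 isozymes except *Eno2*, and that of *Tpi1* was close to that of *Pfkl*.

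The other rises were smaller. Log2 fold changes were 1.21 for the mutase *Pgam1*, 0.82 for the isomerase *Gpi1*, 0.77 for the dehydrogenase *Gapdh*, 0.73 for *Bpgm*, which makes 2,3-bisphosphoglycerate, and 0.59 for the pyruvate kinase *Pkm*, with adjusted p from 6.6e-08 for *Pgam1* to 0.000457 for *Pkm* by edgeR. The tissue-restricted paralogs *Gapdhs* of sperm, *Pgam2* of muscle and *Pklr* of liver did not pass the test, at log2 fold changes of 0.62, -0.3 and -0.095, nor did the ADP-dependent glucokinase *Adpgk* at 0.1. *Pgk2* had no counts. Part of the reads of most genes that rose may be shared with other annotated genes, by their stretches of 50 bases. The share of these that occurs elsewhere was 82.5% for *Gapdh*, 68% for *Pgk1*, 41.5% for *Pgam1*, 34.4% for *Pkm*, 25.3% for *Gpi1* and 7.51% for *Tpi1*. The other genes include copies and overlapping genes, such as *Gm49759* on the same strand as *Pkm*.

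Among 11 regulators of phosphofructokinase and enzymes of the opposing direction, 7 passed the filter, 4 rose and 1 fell. Over all genes tested, 24.1% rose and 23.8% fell. *Pfkfb3*, which makes fructose 2,6-bisphosphate, an activator of phosphofructokinase, rose from 34 ± 1.75 to 79.6 ± 12.8 CPM (mean ± SD, n = 2 each), with a log2 fold change of 1.22 (SE 0.11, adjusted p = 1.2e-07 by edgeR). *Pfkfb1*, the liver form, rose by a log2 fold change of 0.93 (adjusted p = 0.00674 by edgeR) and *Pfkfb4* by 0.41 (adjusted p = 0.0242), whereas *Pfkfb2* had 27.2 CPM in WT and 27.3 CPM in KO. *Tigar*, counted under its older name *9630033F20Rik*, removes fructose 2,6-bisphosphate, and it rose too, by 0.67 (adjusted p = 1.92e-05 by edgeR). Genes that make and that remove this activator were thus among those that rose.

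Enzymes that run the opposing direction ranged from the detection limit to levels like those of the rarer isozymes. The fructose bisphosphatases *Fbp1* and *Fbp2* and the glucose 6-phosphatase *G6pc* had 3 or fewer counts in every library, and *Pck1* had 3 and 8 counts in WT against 10 and 1 in KO. *Pck2*, the mitochondrial enzyme that makes phosphoenolpyruvate from oxaloacetate, fell from 18.2 ± 0.932 to 8.51 ± 0.95 CPM (mean ± SD, n = 2 each), with a log2 fold change of -1.11 (adjusted p = 8.54e-06 by edgeR). *G6pc3*, the glucose 6-phosphatase found in most tissues, had 14.9 CPM in WT and 16 CPM in KO and did not pass the test.

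**Figure D4:**
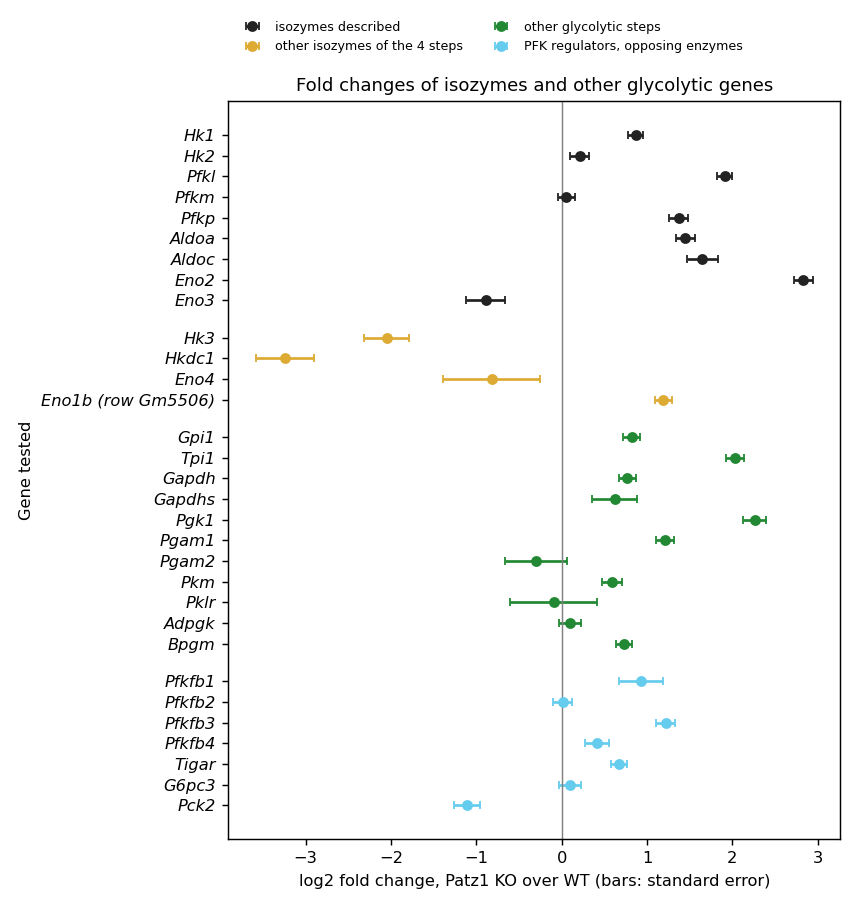
Log2 fold change of *Patz1* KO over WT with its standard error for the 9 isozymes that passed the filter and for other glycolytic genes reported here, by list. The isozymes run from -0.89 for *Eno3* to 2.83 for *Eno2*, and the other hexokinases *Hk3* and *Hkdc1* lie below 0 while the 7 genes of other steps that rose lie above it.

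For the isozyme of each step with the largest difference, the genes with the most similar profile were sought by the root mean square distance of centred log2(CPM + 0.5) values over the 4 libraries, among 14269 genes. For *Eno2* the nearest was *Pdk1* at 0.0781, a kinase that shuts pyruvate out of the mitochondrial cycle, at 13.8 and 13.4 CPM in WT and 89.5 and 97.2 CPM in KO, followed by *Nkx6-2* and *Gpr162*. For *Pfkl* they were the channel gene *Hcn2* at 0.0353, *Foxd3* and *Rnd1*. For *Aldoc* they were the sulfotransferase gene *Chst1* at 0.0411, *Hoxd8* and *Grhpr*. For *Hk1* they were the DNA repair gene *Smug1* at 0.0153, *Mapk4* and *Iffo1*. With 4 libraries in 2 groups, such nearness mostly reflects a like difference between the genotypes on this scale. The 0.5 added to CPM shrinks the differences of genes with low levels. *Foxd3*, at 0.671 and 0.566 CPM in WT, had a log2 fold change of 2.51, against 1.91 for *Pfkl*. *Chst1*, at 0.94 and 1.07 CPM in WT, had 1.92, against 1.65 for *Aldoc*.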

How the data were processed

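RNA-seq counts of 4 libraries of MNs, 2 per genotype, were used. The authors deposited raw read counts per gene symbol, without normalization. The submitters' processing notes name mm10, TopHat2 2.1.1, Bowtie2 2.3.1, featureCounts 1.6.2 and DESeq2, and the paper's methods name Bowtie 2 and DESeq2. The annotation, the strand setting and the treatment of reads with several matches are not given in the sources used here, so counts of overlapping genes and of genes with near copies are uncertain. Every entry names a gene, and total counts ran from 14769104 to 23881522 per library.

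Counts were scaled with TMM and tested with edgeR 4.0.16 (limma 3.58.1, R 4.3.3) by its quasi-likelihood test with Benjamini-Hochberg adjustment over the 14269 genes kept by filterByExpr (minimum count 10), with a threshold of 0.05. Standard errors (SE) were obtained by dividing the size of a log2 fold change by the root of its F value. The common biological coefficient of variation was 7.71%. Replicates differed by more than sampling noise (chi-square per gene 10.5 in WT, 23.4 in KO). Groups came from the sample titles. Exact permutation of 2 against 2 libraries cannot reach 0.05 and was left out. DESeq2 1.42.0 was an alternative, beside other scalings, filters, lengths, a replicate block and leaving out each library. The edgeR and DESeq2 tests, without the block, were tried on simulated counts.

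Lengths, positions and shared stretches of 50 bases came from GENCODE M21 on GRCm38, the assembly of mm10. Since the annotation used for counting is not given, lengths are approximate. Identities came from global alignments of coding sequences in Biopython 1.88, and tables were made with Python 3.11.15, numpy 2.4.6 and pandas 2.3.3. Promoter windows are from RefSeq. All 10 isozymes matched by symbol, and 2 other genes by an older symbol. The detection limit was set at 3 counts per library.

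The isozymes, the pathway lists and the marker lists were chosen with earlier results of these data known. The text names all isozymes, the genes of the 3 pathway lists with values or counts, except 2 that are not reported here, the 3 nearest profiles per step, *Patz1* and markers that stand beside a result.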

Additional observations from a re-analysis of the deposited data

How the results depend on the processing

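The isozymes were chosen on this comparison, so their ranges over the 11 alternatives are a description and no support. Their log2 fold changes ran over 0.84 to 0.9 for *Hk1*, 1.86 to 1.96 for *Pfkl*, 1.33 to 1.41 for *Pfkp*, 1.3 to 1.59 for *Aldoa*, 1.57 to 1.74 for *Aldoc*, 2.74 to 2.93 for *Eno2* and -1.1 to -0.66 for *Eno3*. *Hk2* ranged from 0.015 to 0.4 and was called higher only without the first *Patz1* KO library, where it was 0.4. *Pfkm*, never called, ranged up to 0.16 without the second KO library and turned to -0.06 without the first KO library and to -0.037 without the second WT library. The cause was not tested.

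The number of genes called went from 6836 to 4521 without the second WT library, 2175 of them lower, and 7816 were called without the second KO library. Over the 4 fits that leave out 1 library, 2346 to 3985 genes were higher and 2175 to 3831 lower. In these fits the lone library of a group is assumed to vary like the other group. DESeq2 called 5118 genes, 5057 of them among the 6836, and changed no call among the isozymes. Of the other pathway genes, 14 to 17 of those tested were called, against 15. The largest shift of the median log2 fold change of all genes by another scaling was -0.028, with library size alone. Samples shared only a replicate number (correlation of deviations 0.03 over 2 pairs), and the replicate block called 7361 genes, 6807 of them shared, with no change of call among the isozymes.

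Shares within a step moved with the length used and with the libraries. The difference of *Hk2* was -7.43 percentage points without the first KO library and -15.16 without the second, against -11.3, and -10.89 to -11.31 over the lengths. The gain of *Pfkl* was 24.6 percentage points without a length correction and 26.47 per kb of the longest protein-coding transcript, a length added after seeing the data, against 29.1. That of *Pfkm* was -25.29 without a correction against -30.3. That of *Pfkp* was 0.64 per kb of the longest transcript and 0.68 without a correction against 1.18. That of *Eno2* was 38.88 per kb of the longest transcript and of the longest protein-coding transcript and 27.82 without a correction, against 46.5. With the *Eno1b* entry counted in the step, also added after seeing the data, it was 21.22. These follow from the lengths and the genes counted, and no share changed direction. The *Aldoc* counts, 65 and 72 in WT, limit what can be said of the aldolase balance.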

Other observations

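Paralogs outside the 4 steps also shifted against each other within libraries, given here as values without a test. *Pfkfb3* per *Pfkfb2*, bifunctional enzymes that set fructose 2,6-bisphosphate, was 1.23 and 1.28 in WT against 2.48 and 3.39 in *Patz1* KO, and *Pfkfb3* per *Pfkfb4* was 1.65 and 1.78 in WT and 2.35 and 3.98 in KO. Both ratios were higher in each KO library. *Pgam1* per *Pgam2*, the brain-type over the muscle-type phosphoglycerate mutase, was 105 and 186 in WT and 476 and 323 in KO. It rested on 26 to 40 counts of *Pgam2* per library.

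The ratios of *Gapdh* to the sperm form *Gapdhs* overlapped between the genotypes, at 95.8 and 127 in WT and 128 and 114 in KO. Those of *Pkm* to the liver form *Pklr* overlapped too, at 1060 and 2380 in WT and 1910 and 3220 in KO, with 7 to 20 counts of *Pklr* per library.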
